A study of Homo sapiens with 18 samples.

Results

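PNT1A cells that stood in the intestine location of a phantom during prostate radiotherapy were compared with sham-irradiated control cells. Samples were taken by their labels, 3 arrays of intestine and 3 of control out of 18 in the series. PNT1A is a line grown from normal human prostate epithelium and immortalised by SV40, whose large T antigen binds p53, so no intestinal cell was measured and the location names only where the flask stood. The intestine flask lay 15 cm from the axial plane and received 0.43 Gy, the highest dose outside the beam, while the flask in the axis received 70 Gy. Flasks at 35 cm (lung), 52 cm (thyroid) and 74 cm (brain) received less. Control flasks were filled with PBS at room temperature and were not exposed. All cells were collected 1 h after the procedure, plated in full medium, and their RNA was taken 24 h later. Each group had 3 replicates. The question was how large a change the cells in the intestine could have had, above all in the genes that respond in the axis.

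Ionising radiation breaks DNA, and the kinases that sense the breaks stabilise p53, a transcription factor. p53 turns on genes that stop the cell cycle (CDKN1A), genes that limit p53 itself (MDM2), death receptors, and enzymes of repair and nucleotide supply. In epithelial cells the same exposure can change secreted cytokines, interferon-stimulated genes and matrix genes. SV40 large T antigen blunts p53 in cells that carry it.

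The 18 arrays had median log2 intensities between 4.07 and 4.22. Within control or within intestine, arrays correlated at 0.9918 to 0.9958 over all genes, and between the groups at 0.9923 to 0.9961. On the first principal component, with 47% of the variance, the axis arrays lay at 41.5 to 44.9 and all others at -9.81 to -7.36. Of 15 prostate epithelium markers, 10 stood above the median gene level of 4.14 in both groups (KRT8 and KRT18 among them) and 4 below it in both, the basal keratin KRT14 and the secretory products KLK2, KLK3 and ACP3 (KLK3 at 3.96 ± 0.15 in control, SD, n = 3). The last, CDH1, lay at 4.10 in control and 4.30 in the intestine. Of 10 fibroblast and smooth muscle markers, 6 stood above the median gene in both groups, led by COL1A1 (8.70 ± 0.09 in control) and VIM (7.28 ± 0.08), and 4 below it (COL1A2, DCN, LUM and MYH11). Of 8 immune and endothelial markers only CD68 stood above it. The 8 colon epithelium markers lay between 2.90 (CDH17) and 4.13 (CDX1) in the intestine group, below the median gene.

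No gene passed the test in the intestine. Of 22392 genes tested with limma, 0 were called higher and 0 lower at an adjusted p under 0.05 and a change over 1.5-fold, a background of 0% in each direction. The smallest adjusted p was 0.738 (limma, TTC34) and the next was 1.00. At an unadjusted p under 0.05 there were 723 genes (3.23%), of which 215 were higher (0.96%) and 508 lower (2.27%). With trend and robust variance the count was 665 and with array weights 931, again with 0 calls. The share of lower genes in such a count was 70.3% as deposited, 40.2% with each array centred on its median, 49.5% after quantile normalisation and 47.9% after cyclic loess, so it had no settled side. In 525 genes (2.34%) all 3 intestine arrays lay above all 3 controls, and in 1044 (4.66%) below.

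The precision of 3 arrays against 3 sets what these values can bound. The standard error of a difference was 0.10 at the median gene, and 0.07 to 0.17 between the 5th and the 95th percentile. The 95% confidence interval of a single gene therefore reached 0.21 to either side on the log2 scale at the median gene, or 1.16-fold. That interval lay wholly inside 1.5-fold in 21784 genes (97.3%) and inside 1.2-fold in 9122 (40.7%). Widened to hold for all genes at once, it reached 0.69, or 1.61-fold, and lay inside 1.5-fold in 2915 genes (13%). Over all genes the median difference was -0.02. A change under 1.5-fold could thus clear a single gene's own interval, but with the wider interval most genes were not bounded to 1.5-fold.

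Genes that respond in the axis were chosen with no control or intestine array. The arrays that chose them enter the estimates of the intestine comparison only through the shared spread, which sets its standard errors. Axis was set against the mean of lung, thyroid and brain in a limma fit of those 12 arrays, with the same thresholds. This gave 1091 genes higher in the axis (4.87% of those tested) and 500 lower (2.23%). The baseline of the axis values is therefore the far flasks, and that of the intestine values the controls. Just inside the threshold were RELL2 (1.5002-fold higher in the axis) and TM4SF1 (lower, 1.5-fold after rounding), and just outside TIMM9 (1.4998-fold higher) and SREBF1 (1.4998-fold lower).

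The axis responders had similar levels in intestine and control. The 1091 genes higher in the axis had median levels of 5.45, 5.44 and 5.53 in the 3 control arrays and 5.47, 5.50 and 5.33 in the 3 intestine arrays, against 6.45, 6.46 and 6.49 in the axis. The 500 genes lower in the axis had medians of 6.67, 6.68 and 6.79 in control, 6.68, 6.73 and 6.54 in intestine and 5.68, 5.68 and 5.63 in the axis. In both cases the control and intestine arrays overlapped, intestine replicate 3 was the lowest of the 6, and the axis stood far from them all. The median difference between intestine and control was -0.03 in each direction, beside -0.02 over all genes.

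**Figure D1:**
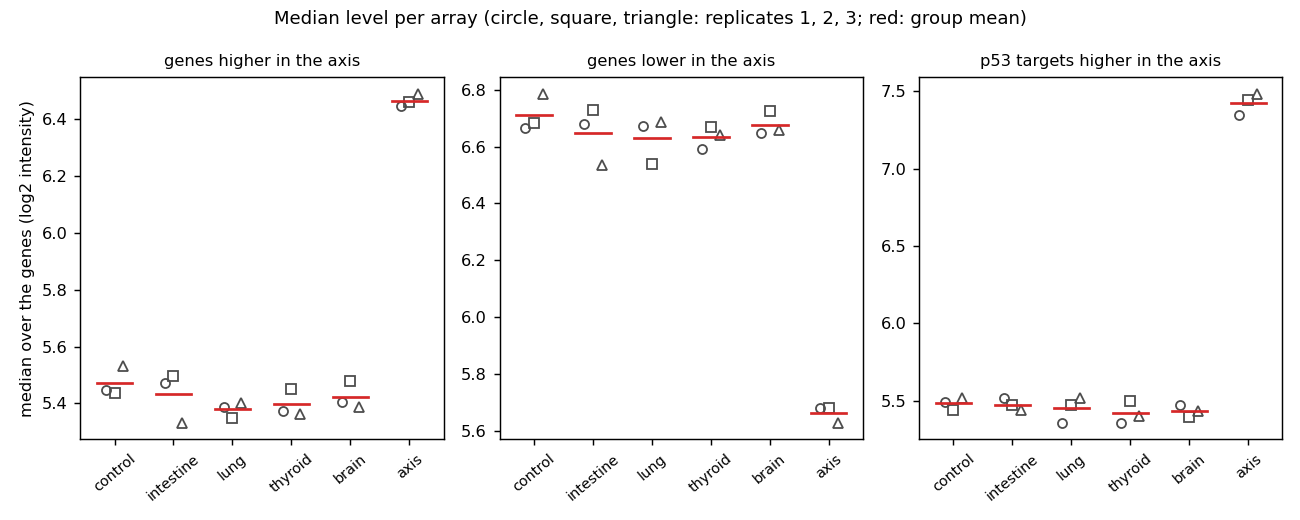
Median log2 intensity (vertical axis) of each of the 18 arrays by location (horizontal axis), over the 1091 genes higher in the axis, the 500 genes lower in the axis and the 47 direct p53 targets among the former. Symbols are replicates and red lines are group means. The intestine arrays (5.33 to 5.50 in the left panel) overlap the controls (5.44 to 5.53), and the axis arrays (6.45 to 6.49) stand apart.

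At 1.5-fold, single responders were bounded about as well as all genes. Of those higher in the axis, 1067 of 1091 (97.8%) had an intestine interval inside 1.5-fold and 373 (34.2%) inside 1.2-fold. Of those lower in the axis, 487 of 500 (97.4%) and 220 (44.0%) did, beside 97.3% and 40.7% of all genes. At an unadjusted p under 0.05, 8 of the genes higher in the axis were higher in the intestine (0.733%) and 34 lower (3.12%), near the background of 0.96% and 2.27%. Of the genes lower in the axis, 2 were higher (0.4%) and 8 lower (1.6%). All 3 intestine arrays exceeded all controls in 18 of the 1091 (1.65%) and fell below them in 60 (5.50%), close to the 2.34% and 4.66% of all genes.

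Set against the size of the axis response, the limits were tighter. For a gene higher in the axis, the upper end of its intestine interval was at the median 20.7% of its log2 change in the axis, taking the axis value as exact. It was under 50% in 1037 of the 1091 genes and under 25% in 665. Of the 500 genes lower in the axis, the lower end was under 50% of the axis change in 434 and under 25% in 225. In the 60 genes more than 4-fold higher in the axis it never exceeded 20.9%, and in the 12 more than 4-fold lower it never exceeded 35.0% (CCL2). With the interval widened to hold over all genes, the bound was below the whole axis change in 797 of the 1091 genes and in 324 of the 500.

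**Figure D2:**
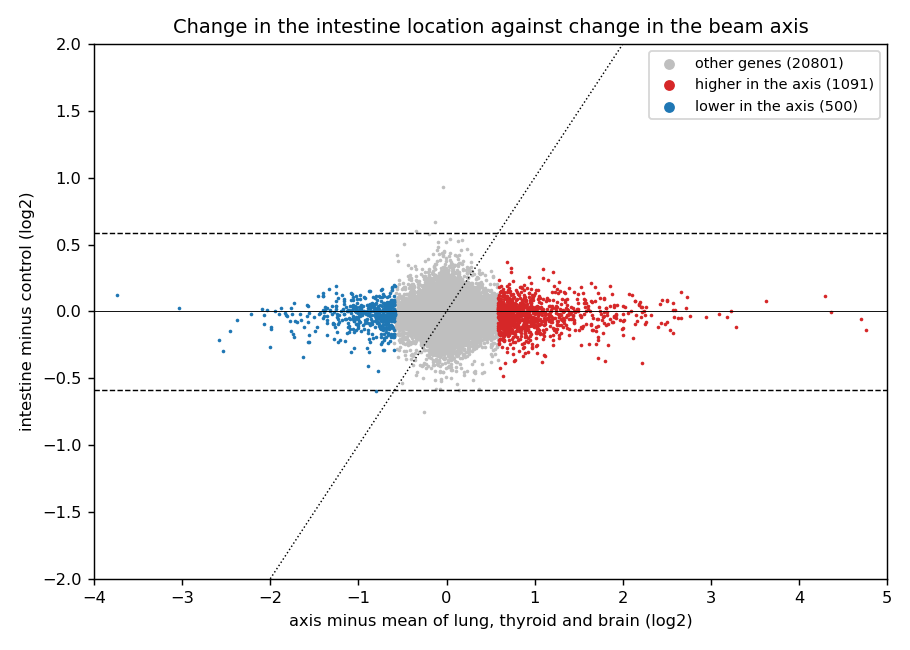
Log2 difference between intestine and control (vertical axis) against log2 difference between axis and the mean of lung, thyroid and brain (horizontal axis), 1 point per gene. Dashed lines mark 1.5-fold and the dotted line marks equal change. All but 1 of the 1591 responders lie inside the dashed lines, while axis differences run from -3.74 to 4.76.

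Direct targets of p53 rose in the axis, and none passed the test in the intestine. Of 66 targets listed 60 were measured, and 47 of these were higher in the axis (78.3%, beside 4.87% of all genes). Their median axis change was 1.90 on the log2 scale. The list was chosen with earlier results of these data known, so this share is not an independent finding. In the intestine 0 of the 60 passed the limma test and 0 had an unadjusted p under 0.05, beside 3.23% of all genes. The median intestine difference of the 60 was -0.01 and the range was -0.19 (DDB2) to 0.13 (TNFRSF10A). All 60 intervals lay inside 1.5-fold. The highest upper end was 1.31-fold (ULBP1) and the lowest lower end corresponded to a fall of 1.42-fold (DDB2). With intervals widened over all genes, 6 of the 60 stayed inside 1.5-fold, and for 43 of the 47 responders the bound stayed below the whole axis change.

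CDKN1A, the cyclin-dependent kinase inhibitor p21, had log2 levels of 6.23, 6.30 and 6.32 in control and 6.14, 6.37 and 6.43 in the intestine. The intestine arrays spread on both sides of the controls. The mean was 6.28 ± 0.05 in control and 6.31 ± 0.15 in the intestine (SD, n = 3), a difference of 0.03 with a 95% interval of -0.15 to 0.21 (adjusted p = 1.00, limma). The interval runs from 0.903-fold to 1.15-fold, whereas CDKN1A was 3.31-fold higher in the axis. In lung, thyroid and brain it averaged 6.30, 6.26 and 6.12, and the intestine mean lay closest to that of lung.

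MDM2, the ubiquitin ligase that degrades p53, stood at 8.46, 8.46 and 8.60 in control and at 8.38, 8.50 and 8.24 in the intestine. The groups overlapped through intestine replicate 2. The difference was -0.13 (95% interval -0.30 to 0.04), and the upper end was 1.9% of the axis rise of 2.00, the smallest such share among the 47 responders. PPM1D, the phosphatase that switches off the damage signal, differed by 0.08 (-0.11 to 0.26) against a rise of 2.14 in the axis. Of the 8 feedback genes, 7 were axis responders. In the intestine the median difference of all 8 was 0.04.

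GDF15, a secreted stress cytokine, had levels of 4.76, 4.74 and 4.59 in control and 4.78, 4.72 and 4.52 in the intestine. These values nearly coincided. The difference was -0.02 (95% interval -0.30 to 0.26) while GDF15 was 8.54-fold higher in the axis. TP53INP1, a stress protein that acts with p53, stood at 4.997, 4.859 and 5.088 in control and 5.180, 5.004 and 4.843 in the intestine, against a rise of 2.71 in the axis. The sestrin genes SESN1 and SESN2, which restrain growth signalling, differed by 0.07 and -0.08. In PHLDA3, an inhibitor of Akt, all 3 intestine arrays (4.40, 4.43 and 4.38) lay below all 3 controls (4.56, 4.50 and 4.60), the only such case among the 60 targets (1.67%, beside 4.66% of all genes). Its difference of -0.15 had an interval of -0.39 to 0.09, and in the axis it was 1.70 higher. In lung, thyroid and brain PHLDA3 averaged 4.43, 4.44 and 4.30, also below the control mean of 4.55.

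**Figure D3:**
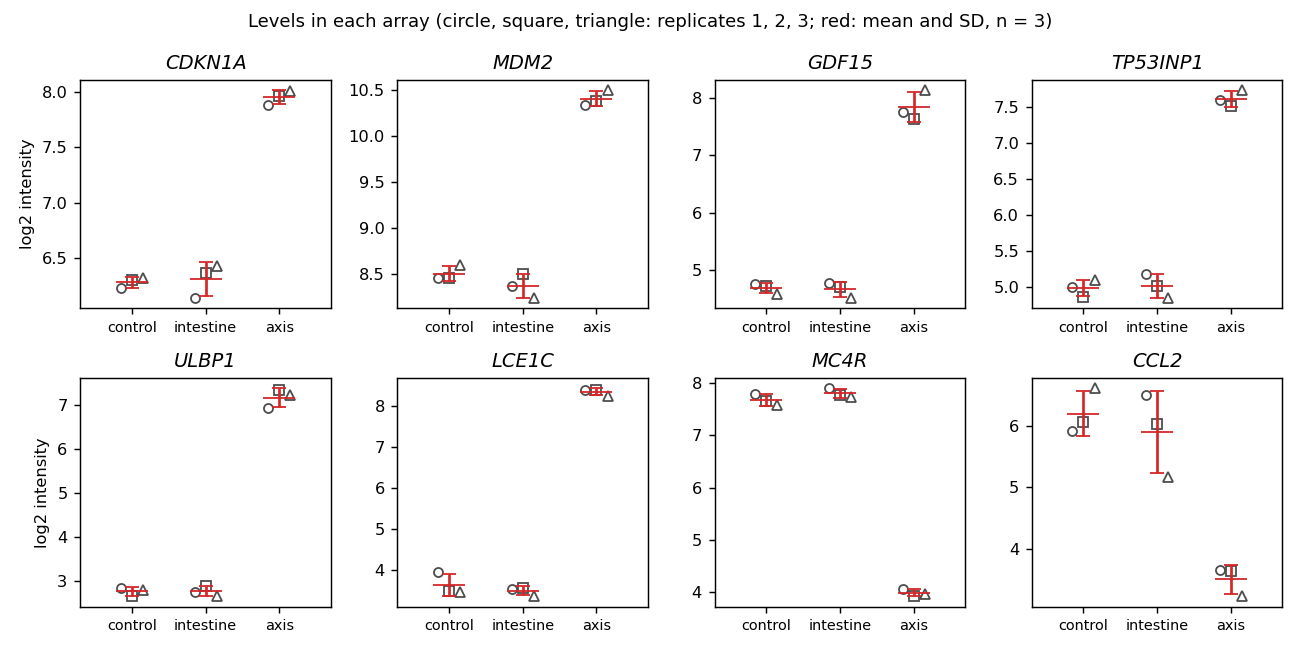
Log2 intensity (vertical axis) of 8 genes in the 3 arrays each of control, intestine and axis (horizontal axis), with group mean and SD in red (n = 3). Vertical scales differ between panels. In all 8 genes control and intestine overlap, and the axis stands 1.73 (CDKN1A) to 4.76 (LCE1C) above or 2.54 (CCL2) to 3.74 (MC4R) below the mean of lung, thyroid and brain.

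The death pathway was bounded in the same way. FAS and the TRAIL receptors TNFRSF10A and TNFRSF10B, which carry death signals from outside the cell, differed by 0.08, 0.13 and -0.04 in the intestine. In the axis they were 4.40-fold, 4.29-fold and 4.60-fold higher. Of the mitochondrial members BBC3, PMAIP1 and BAX, none differed by more than 0.03 in size, and their axis changes were 1.29, 1.75 and 0.64. For APAF1, which builds the caspase platform, the values were -0.03 and 1.90. All 13 measured apoptosis genes had intervals inside 1.5-fold, the highest upper end being 0.36 (EDA2R, a receptor of the TNF family).

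Repair genes under p53 control showed the most negative value. DDB2, which recognises ultraviolet damage, stood at 5.73, 5.89 and 5.68 in control and 5.58, 5.81 and 5.33 in the intestine. The groups overlapped, and within the intestine the low mean rested mostly on replicate 3. In lung, thyroid and brain DDB2 averaged 5.54, 5.58 and 5.67, also below the control mean of 5.77. The difference between intestine and control was -0.19 (95% interval -0.50 to 0.12), against 1.72 in the axis. XPC, its partner in nucleotide excision repair, differed by 0.04 and RRM2B, a subunit of ribonucleotide reductase, by 0.04. PCNA, the sliding clamp of replication, differed by -0.13 (-0.27 to 0.02) and was 0.37 higher in the axis. Among surface and metabolic targets, ULBP1, a ligand that marks stressed cells for natural killer cells, was 20.6-fold higher in the axis and differed by 0.00 in the intestine (-0.39 to 0.39). ULBP1 was dim in both groups (2.76 ± 0.10 and 2.76 ± 0.11). ACER2, an alkaline ceramidase, differed by 0.08 (-0.09 to 0.25) and TIGAR, which lowers glycolytic flux, by 0.01 (-0.27 to 0.29).

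**Figure D4:**
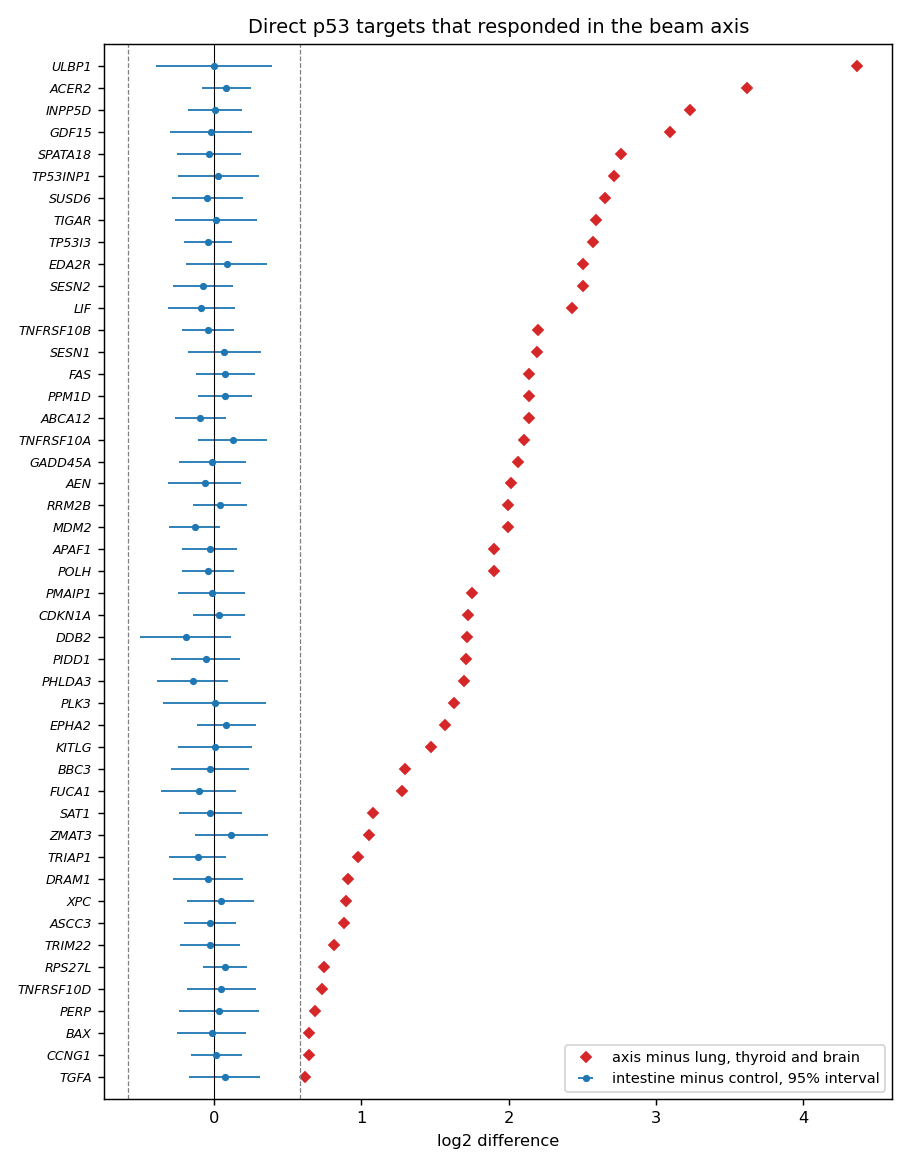
Log2 difference between intestine and control with its 95% interval (blue) and log2 difference between axis and the mean of lung, thyroid and brain (red) for the 47 direct p53 targets (vertical axis) higher in the axis. Dashed lines mark 1.5-fold. All 47 blue intervals lie inside them and the highest upper end is 0.39 (ULBP1), while the red values run from 0.62 (TGFA) to 4.36 (ULBP1).

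The promoters of PURPL, PTCHD4 and DDB2 are printed because they hold a full p53 response element and their genes rose in the axis. The element is a pair of 10-base units, each 3 purines, C, 2 letters A or T, G and 3 pyrimidines, next to each other or with 1 base between them. It reads the same on both strands. Exact matches were sought in RefSeq windows from 250 bases before to 50 bases after each gene's start (GRCh38.p14), and 7 of 35116 windows (0.0199%) held one. Of the genes tested, 15487 had a window and 3 held the element. These were 3 of the 876 genes with a window that were higher in the axis, and 0 of the 372 lower. They were looked for after the values were known. Capitals mark the element.
PURPL (chr5:27472135-27472214, + strand, element from 127 bases before the start): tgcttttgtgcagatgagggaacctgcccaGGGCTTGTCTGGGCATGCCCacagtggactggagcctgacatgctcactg
PTCHD4 (chr6:48111198-48111247, - strand, element from 20 bases before the start): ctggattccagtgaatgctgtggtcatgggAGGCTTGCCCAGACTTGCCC
DDB2 (chr11:47214975-47215003, + strand, element from 5 bases after the start, 1 base between the units): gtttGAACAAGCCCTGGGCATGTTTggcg

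These 3 genes carried the element and were 1.69, 1.15 and 1.72 higher in the axis on the log2 scale. In the intestine PURPL, a long non-coding RNA, stood at 3.10, 3.27 and 3.38 against 3.15, 3.06 and 3.00 in control, a difference of 0.18 (-0.10 to 0.47). PTCHD4, a patched-domain membrane protein, differed by -0.02 (-0.27 to 0.23). The DDB2 value is given above. None passed the test, and their signs were mixed.

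Outside the p53 list, the genes that rose most in the axis stayed near their control levels. LCE1C and LCE1F, structural proteins of the cornified envelope, were 27.0-fold and 25.9-fold higher in the axis. LCE1C stood at 3.96, 3.50 and 3.47 in control and 3.56, 3.58 and 3.38 in the intestine, overlapping. Its difference was -0.14 (-0.40 to 0.13) and that of LCE1F -0.06 (-0.31 to 0.19). The LCE1 genes are close copies of one another, and signal shared between them could not be separated. DNAI3, a dynein chain of cilia, differed by 0.11 (-0.09 to 0.32) against 4.29 in the axis. LAMP3, a lysosomal membrane protein, differed by -0.04 (-0.27 to 0.18) against 2.94.

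Genes that fell most in the axis did not pass the test in the intestine. MC4R, a melanocortin receptor, stood at 7.79, 7.66 and 7.57 in control and 7.89, 7.78 and 7.73 in the intestine. The intestine values were if anything above the controls, with a difference of 0.12 (-0.05 to 0.30), while MC4R was 13.4-fold lower in the axis. RAB27B, a GTPase of vesicle release, differed by 0.02 (-0.23 to 0.27) and was 8.22-fold lower in the axis. The cadherin FAT4 and the growth factor receptor PDGFRB differed by 0.02 and -0.03.

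Several genes that fell in the axis were lower in intestine replicate 3, and those named here were picked after their values were seen. CCL2, a monocyte chemokine, stood at 5.92, 6.06 and 6.60 in control and at 6.49, 6.03 and 5.17 in the intestine. Replicate 3 was the lowest of the 6 arrays and the others overlapped. The difference of -0.30 had the widest interval of the named axis responders that fell most (-0.89 to 0.29), whose lower end was 35.0% of the axis change. The chemokine CXCL12 stood at 7.33, 7.34 and 6.70 in the intestine, the matrix protein CCDC80 at 7.40, 7.51 and 6.74, the scavenger receptor COLEC12 at 7.18, 7.39 and 6.44, and the protease inhibitor SLPI at 7.29, 7.35 and 5.99. In control these 4 genes were between 6.89 and 7.60. Of the 500 genes lower in the axis, 20 were more than 1.5-fold lower in replicate 3 than in the mean of the other 2 intestine arrays, against 2 for replicate 1 and 1 for replicate 2. In the 3 control arrays that count was 1, 2 and 1. Replicate 3 was also lower in 21 of the 1091 genes higher in the axis, beside 4 and 2 in the other intestine arrays and 1, 4 and 1 in the control arrays. These were 4.0% and 1.92% of the sets. Over all 22392 genes, 138 (0.616%) were that much lower in replicate 3 and 263 (1.17%) higher, and in replicate 1 these counts were 188 (0.84%) and 113 (0.505%). Its median distance from the other 2 intestine arrays was -0.12 in both sets and -0.01 over all genes, so its offset ran in 1 direction for genes that rose and genes that fell in the axis. Without it the median differences of the responders from control were 0.01 in both sets.

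No gene of growth or repair passed the test. Of 40 replication and E2F target genes, 0 had an unadjusted p under 0.05 and all 40 intervals lay inside 1.5-fold, with a median difference of -0.05. By limma's moderated statistic the extremes were RRM2, the small subunit of ribonucleotide reductase (0.06), and PRIM1, a primase subunit (-0.15). Of 39 mitotic genes, 0 passed and the median was 0.00, between NEK2 (0.15, a centrosome kinase) and PKMYT1 (-0.19, a kinase that holds back mitotic entry). Of 34 genes of double-strand break repair, 0 passed and the median was -0.03. NBN, part of the break sensor, stood at 7.99, 8.04 and 7.99 in the intestine against 7.91, 7.84 and 7.98 in control. All 3 intestine arrays were above the controls, yet by 0.10 in the mean (-0.05 to 0.25). Of the 34 repair genes, 2 lay wholly above the controls (5.88%, beside 2.34% of all genes). Another 4 lay wholly below them (11.8%, beside 4.66%). In the axis 8 of the replication genes (20%), 1 mitotic gene (2.56%) and 7 repair genes (20.6%) were higher, beside 4.87% of all genes.

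Inflammatory lists held single genes with low unadjusted p and none that passed. Of 43 interferon-stimulated genes, 23 were higher in the axis (53.5%, beside 4.87% of all genes). In the intestine their median was -0.05, with 0 higher and 2 lower at an unadjusted p under 0.05 (4.65%, beside 2.27% of all genes). USP18, which removes ISG15 from proteins, stood at 6.93, 6.79 and 6.26 against 6.89, 7.30 and 6.92 in control, a difference of -0.38 (-0.69 to -0.07, adjusted p = 1.00, limma). IFIT3, an antiviral protein, had the highest difference, 0.37 (-0.04 to 0.78). The 2 estimates had opposite signs, and USP18 was lowest in replicate 3. Of 29 NF-kappa B targets and cytokines, RELB, a subunit of NF-kappa B, was the 1 gene lower at an unadjusted p under 0.05 (3.45%, beside 2.27% of all genes), by -0.25 (interval -0.49 to -0.02), while 1.83 higher in the axis. Of 29 immediate early genes, JUND was higher (0.24, interval 0.03 to 0.44) and PHLDA1 lower (-0.25, interval -0.43 to -0.07), both with adjusted p = 1.00 (limma). At an unadjusted p under 0.05 these were 3.45% each, beside 0.96% and 2.27% of all genes.

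No matrix or identity gene passed the test. Of 33 matrix and adhesion genes, 14 were lower in the axis, beside 2.23% of all genes. In the intestine 0 of the 33 had an unadjusted p under 0.05, with a median of -0.05. COL1A1, the main chain of collagen I, stood at 8.63, 8.80 and 8.66 in control and 8.60, 8.64 and 8.63 in the intestine, a difference of -0.07 (-0.24 to 0.09) against -1.72 in the axis. Of the 15 prostate epithelium markers, 2 were lower at an unadjusted p under 0.05 (13.3%, beside 2.27% of all genes), KRT18 (-0.16, interval -0.32 to -0.01) among them, and 14 intervals lay inside 1.5-fold. CDH1, the epithelial cadherin, had the highest difference (0.20, interval -0.04 to 0.45).

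A few axis responders had larger intestine differences. The highest were IFIT3 (0.37), TINCR, a long non-coding RNA of epidermal differentiation (0.32), CIDECP1 (0.32), ZNF486 (0.30) and CENPQ, a centromere protein (0.30). In ZNF486 all 3 intestine arrays (6.34, 6.36 and 6.52) lay above the controls (6.12, 6.09 and 6.12). Its interval was 0.11 to 0.49, against 1.21 in the axis, and the adjusted p was 1.00 (limma). The lowest were RNU6-57P (-0.60), GALR2, a galanin receptor (-0.48), TRIM16L (-0.45), RN5S55 (-0.42) and SLPI (-0.40). GALR2 ran against its axis direction, with 3.69, 3.86 and 4.24 in the intestine, 4.32, 4.44 and 4.48 in control, and a difference of 0.65 in the axis. RNU6-57P, a U6 pseudogene, stood at 4.07, 4.58 and 4.77 against 5.15, 5.04 and 5.01, and was the single responder whose intestine estimate passed 1.5-fold. It ran with its axis direction (-0.80 in the axis), as did TRIM16L (-0.78) and SLPI (-0.89), while RN5S55 ran against it (0.61).

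The genes that led the comparison by the moderated statistic were not axis responders at the thresholds used. TTC34, a protein with tetratricopeptide repeats, stood at 4.66, 4.59 and 4.47 in control and 4.02, 4.04 and 4.10 in the intestine. The groups were apart, by -0.52 (-0.72 to -0.32), with an adjusted p of 0.738 (limma). Below TTC34 came MIR645 (-0.54), ARHGEF40 (-0.39), RNF141 (-0.29), MIR3911 (-0.58), BTN2A1 (-0.34), PCDHB19P (-0.41), TRIM45 (-0.40), PCYT2 (-0.42) and RN5S344 (-0.45). PCYT2, an enzyme of phosphatidylethanolamine synthesis, stood at 5.08, 5.20 and 4.92 against 5.30, 5.63 and 5.55. Above were MIR550A3 (0.54), CDH9 (0.37), RN5S480 (0.53), MIR302D (0.44), NDUFAF3 (0.26), TRIB2 (0.42), ZNF268 (0.27), GPC5-AS1 (0.45), TRIM53AP (0.38) and FMNL1-DT (0.28). NDUFAF3, an assembly factor of respiratory complex I, stood at 4.86, 4.71 and 4.77 against 4.49, 4.48 and 4.59. Several of these are short RNAs or genes near the dim end of the array, and none changed over 1.5-fold in the axis. At an adjusted p under 0.05 (limma), MIR645 (-0.50), TRIM45 (-0.27) and ZNF268 (0.29) had smaller axis differences of the same sign. MIR3911 (0.37) and BTN2A1 (0.21) had axis differences of the opposite sign.

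Only 4 genes (0.0179%) joined an unadjusted p under 0.05 to an estimate over 1.5-fold, and they were picked out after their values were seen. OR2T12, an olfactory receptor, stood at 4.92, 4.49 and 5.15 in the intestine and 4.003, 4.704 and 3.853 in control, overlapping. RNY4P23, a Y RNA pseudogene, stood at 4.38, 5.29 and 5.33 against 5.44, 5.89 and 5.93, with a difference of -0.76 (-1.48 to -0.03). The other two were MIR596 (-0.59) and RNU6-57P. Each had an adjusted p of 1.00 (limma).

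The intestine was also set against lung, thyroid and brain, which received less dose but stood in the same phantom. No gene passed, with 0 higher and 0 lower of 22392 (0%) and a smallest adjusted p of 1 (limma). At an unadjusted p under 0.05 there were 758 genes (3.39%), 320 higher (1.43%) and 438 lower (1.96%), and 3 of them (0.0134%) were past 1.5-fold. The leading genes were RN5S480 (0.44), FAM133B (0.56), LOC400464 (0.30), ZSCAN5C (0.51) and ANKRD61 (0.39) among the higher, and TTC34 (-0.32), RIPOR3 (-0.34), MIR4289 (-0.35), TTPA (-0.30) and CA4 (-0.32) among the lower. FAM133B differed from control by -0.09, so its difference here was not shared with the controls. In this contrast the 60 p53 targets had a median of 0.02, CDKN1A differed by 0.09, MDM2 by -0.04 and GDF15 by -0.07.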

How the data were processed

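Expression was measured on 18 single-colour Human Gene 2.1 ST arrays. The authors corrected the background and normalised with RMA (affy, versions not given), and deposited log2 intensities. These were used unchanged. The depth of an array has no count, and its number of replicates limits precision. Of 53617 rows, 23866 had exactly 1 gene symbol in the platform annotation, and the row with the highest mean was kept for each of 22392 genes. Rows with several symbols (1852) or none listed (27899) were tested only in a fit over all 53617 rows. limma 3.58.1 (R 4.3.3) was fitted with 1 mean per group over all 18 arrays, with no filter, covariate or block, Benjamini-Hochberg adjustment over all genes, and 95% intervals from the moderated standard error (12 residual degrees of freedom before moderation). The intervals for all genes at once divided 0.05 by the number of genes. Calls needed an adjusted p under 0.05 and over 1.5-fold. The fit was checked on simulated data. Named genes were the 10 highest and lowest axis responders, the leading p53 targets with a fixed core, the 10 leading genes each way, the 5 extreme responders each way, the extremes of each list and the 5 leading genes each way against the other locations. Members and lists were chosen with earlier results of these data known. The replicates are biological repeats by the methods. Some genes are not reported here. Alternatives covered arrays fitted, scaling, row choice, variance model and each replicate left out.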

Additional observations from a re-analysis of the deposited data

How the results depend on the processing

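Calls were 0 under every alternative run for intestine against control and for intestine against lung, thyroid and brain, and 0 of the 108 named genes were called under any of 15 alternatives. The smallest adjusted p (limma) of intestine against control ranged from 0.122 (cyclic loess) to 1 over these settings. The count at an unadjusted p under 0.05 was 350 with brighter genes alone and 1728 over all rows of the table for the first comparison, and 311 and 1984 for the second, where the number of rows tested changes with the setting. Leaving out 1 replicate at a time gave 598 to 1122 genes in the first comparison (highest without intestine replicate 2) and 722 to 1624 in the second (highest without intestine replicate 3), in both with 0 calls. The medians of responders from control then ranged from -0.05 to 0.01 for those higher in the axis and from -0.05 to 0.01 for those lower. Within a group, the medians of single arrays over these genes had an SD of 0.07 and 0.08. That spread is not the error of a difference between group means. Replicates share numbers across groups. Same-numbered control and intestine arrays deviated from their group means with correlations of -0.03, -0.10 and -0.36. Deviations from a mean of 3 arrays constrain each other, so these values cannot decide whether same-numbered arrays belonged together. With the replicate block the count was 707 and 729 genes, again with 0 calls. With 3 arrays a group, a change under about 1.16-fold in a typical gene lies inside its own interval. That width was not computed for 2 arrays in a group. With 1 replicate left out, 1033 to 1056 of the 1091 genes higher in the axis had intervals inside 1.5-fold, beside 1067 with all arrays. Of the 500 lower in the axis, 463 to 487 did, beside 487.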

Other observations

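No gene of the further lists passed the limma test in the intestine. Of 27 NRF2 targets and antioxidant genes, 0 had an unadjusted p under 0.05 and all 27 intervals lay inside 1.5-fold, with a median of -0.06. CAT, which breaks down hydrogen peroxide, stood at 6.15, 6.38 and 5.90 in the intestine and 6.26, 6.25 and 6.46 in control, a difference of -0.18 (95% interval -0.41 to 0.05). Of 23 heat shock and unfolded protein genes, 0 passed either and the median was -0.02. ERN1, a sensor of unfolded protein, was 6.33-fold higher in the axis and differed by 0.14 (-0.09 to 0.37) in the intestine. Of 17 genes of cholesterol synthesis, MVD, which makes isopentenyl diphosphate, had an unadjusted p under 0.05 (1 gene lower, 5.88%, beside 2.27% of all genes), with -0.22 (-0.42 to -0.02), and all 3 intestine arrays lay below all controls in 3 of the 17 genes (17.6%, beside 4.66% of all genes). Of 16 late cornified envelope genes, 3 were higher in the axis (18.8%, beside 4.87% of all genes). In the intestine 0 of the 16 had an unadjusted p under 0.05. Of 29751 rows with several gene symbols or none listed, 1035 had an unadjusted p under 0.05 and 0 were called (limma). Beside this, 723 of the 22392 genes tested (3.23%) had an unadjusted p under 0.05.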
